A study of Mus musculus with 18 samples.

Results

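The 9 control lines of this series are mouse embryo fibroblasts with a normal chromosome set, and they are 9 of its 18 arrays. All arrays whose title marks the line as wild type were taken, and no control was left out. The other 9 lines are trisomic: 4 for chromosome 13, 3 for chromosome 16 and 1 each for chromosomes 19 and 1. By the labels every line was grown for 2 passages in DMEM with fetal calf serum, and cRNA was made from 5 ug of total RNA. The labels give no strain, sex, embryo age or genotype beyond the chromosome number, and no line is described as a clone or a pool. Each title opens with MEF and a first number that controls share with trisomic lines, and the labels do not say what that number stands for. Controls 1 and 3 are MEF-89 lines and control 2 is MEF-92, numbers shared with trisomy 16. Control 4 is MEF-776, controls 5 and 6 are MEF-780 and control 7 is MEF-666, all shared with trisomy 13. Control 8 is MEF-1113, shared with trisomy 19, and control 9 is MEF-836, shared with trisomy 1. Nor do the labels say whether each line came from its own embryo, so every p-value below measures the spread between these samples only.

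Mouse embryo fibroblasts are cells that grow out of a minced embryo and attach to plastic. Such an outgrowth is a mixture at the start: mesenchyme from limbs, trunk and organs dominates, and smooth muscle, endothelial, neural and blood cells can be carried along for some passages. Fibroblasts secrete collagens and other matrix, contain much actin and vimentin, and respond to serum with immediate early genes such as Fos and Egr1. The questions here are which genes such a control line expresses most strongly, whether its markers match the label, and which genes are steady or variable from line to line.

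Expression is given as log2 values, so 1 unit is a doubling of the signal. Each array reports 22690 probe sets, which gave 12394 genes after the probe set with the highest control mean was kept for each. Array medians of the controls lay between 5.63 and 5.91. RNA quality was followed by the Gapdh signal at the 3′ end minus that at the 5′ end, which rises when RNA is degraded or copied incompletely. This difference lay between -0.20 and 0.69 on controls 1 to 8 and was 1.41 on control 9. The same difference for beta-actin lay between 0.34 and 0.98, again with the highest value on control 9. Some controls stood apart for single genes more often than others. Counting genes in which 1 array lay far from the other 8 (Dixon's gap rule) gave 225 genes for control 9, 200 for control 3 and 170 for control 1. Each of the other 6 controls had 2 to 36.

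Of the 12394 genes, 6638 (53.56%) had a control mean of at least 6, the level used below for a clearly measured gene, and 6109 of them reached 6 on every control. Another 4657 genes were under 4 on all 9 controls, which is the level of genes with no signal on these arrays. The strongest signals came from ribosomal proteins and the cytoskeleton. Signals of different genes also depend on their probes, so this is an order of signals and not of transcript numbers. Rpl35, a protein of the large ribosomal subunit, had the highest mean of 16.12 (SD 0.08, n = 9), followed by Rpl13a (16.12, SD 0.03) and Rps29 (16.11, SD 0.11). Actb, the cytoplasmic beta-actin, was at 16.04 (SD 0.13), and its gamma counterpart Actg1 at 15.78 (SD 0.08). Between them stood Lgals1, a galectin, at 16.02 (SD 0.07), Tmsb10, an actin monomer-binding thymosin, at 16.00 (SD 0.08), and Vim, the intermediate filament of mesenchymal cells, at 15.95 (SD 0.08). These neighbouring means lie closer together than the spread between arrays, so the first few places have no firm order.

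The markers of the fibroblast label had strong signals in these lines. All 11 measured genes of the mesenchyme and fibroblast list had a mean of at least 6, although Lum was at 3.60 on control 1. Col1a2, a chain of type I collagen, ran from 15.26 through a median of 15.54 to 15.67. Col3a1, type III collagen, ran from 15.02 through 15.62 to 15.69. The lowest value of both was on control 1. Thy1, a surface marker of many fibroblasts, ran from 13.21 through 13.66 to 14.42, and the highest value was on control 3. Pdgfra, the receptor that marks much of the embryonic mesenchyme, varied more, from 9.70 through 10.96 to 11.84. It was lowest on control 4 and highest on controls 3 and 5. Lum, a keratan sulfate proteoglycan of the matrix, was the list's most variable member and is described with the variable genes.

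Smooth muscle genes formed the other large programme: 13 of 16 measured genes had a mean of at least 6. Acta2, smooth muscle actin and the usual mark of contractile fibroblasts, ran from 15.37 through 15.58 to 15.82. Tagln, the actin-bundling transgelin, ran from 14.63 through 15.02 to 15.45, with controls 1 and 2 highest and controls 5, 6 and 9 lowest. Myh11, the myosin heavy chain of mature smooth muscle, ran from 5.74 through 6.39 to 9.19, and only controls 1 and 2 were above 8. Cnn1, calponin, ran from 10.14 through 11.22 to 12.64 and was highest on control 2.

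**Figure D1:**
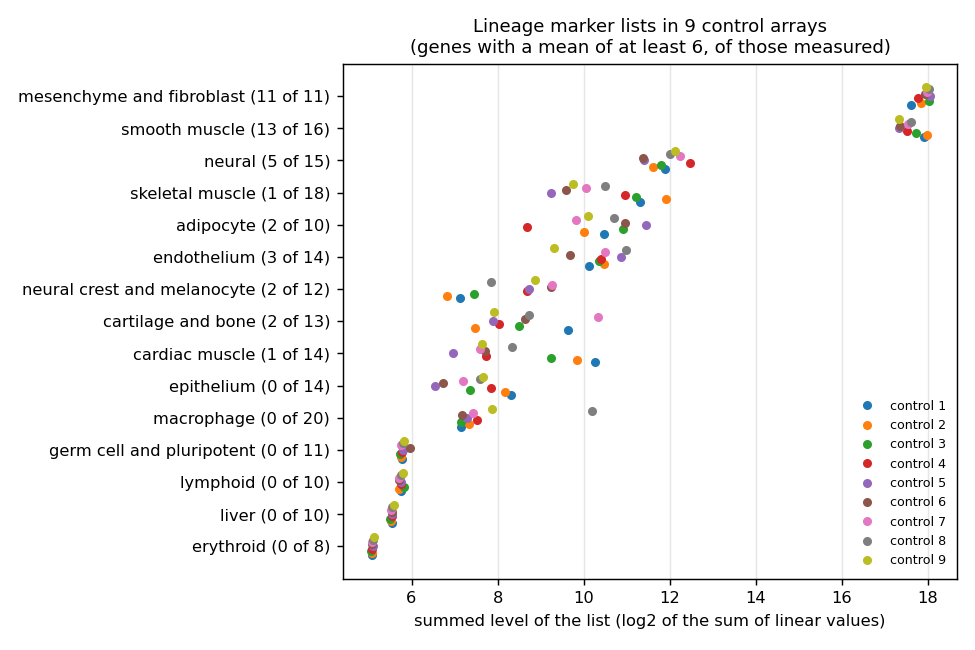
Summed signal of 15 lineage marker lists (horizontal axis, log2 of the sum of the linear values of the measured genes), 1 point per control array, with the number of genes at a mean of at least 6 beside each name. Fibroblast and smooth muscle lists lie above 17 on all 9 arrays, the blood, liver and germ cell lists lie under 6, and 1 array, control 8, stands apart in the macrophage list at 10.19.

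Markers of other lineages were mostly without signal. None of the measured genes of the epithelium (14), liver (10), erythroid (8), lymphoid (10) or germ and pluripotent cell (11) lists reached a mean of 6, and all members of the last 4 were under 4 on every control. Alb, Hba-a1 and Pou5f1 had means of 1.97, 2.21 and 2.19. Among epithelial genes Krt18, a keratin of simple epithelia, came closest with 3.88 to 7.27, while its partner Krt8 stayed between 2.18 and 2.59 and Cdh1, E-cadherin, between 2.51 and 2.60. Of 14 endothelial genes 3 passed, with Flt1 at a mean of 9.69 (SD 0.77), yet the defining markers Pecam1 and Cdh5 were at 1.89 and 1.97. Of 18 skeletal muscle genes only Acta1, the skeletal muscle actin, passed. It ran from 8.50 through 10.38 to 11.87 and was highest on control 2. Of 14 cardiac genes only Tnnt2, cardiac troponin T, passed, with 5.70 through 7.09 to 10.06. Its values on controls 1, 2 and 3 were all above 9, and those on the other 6 were under 8.

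Neural genes were a mixed group, with 5 of 15 at a mean of at least 6. Ncam1, a cell adhesion molecule also made by mesenchyme, ran from 10.64 through 11.53 to 12.08. Nes, the intermediate filament nestin, ran from 4.15 through 6.45 to 8.13 and was low on both MEF-780 lines. Adipocyte genes reached 2 of 10: Fabp4, a fatty acid carrier, had a mean of 8.24 (SD 0.89) and Lpl, lipoprotein lipase, 9.54 (SD 1.64). Cartilage and bone genes reached 2 of 13, Col2a1 and Sox9. Col2a1, the collagen of cartilage, ran from 5.01 through 6.93 to 10.11. Controls 7 and 1 were highest, at 10.11 and 9.29.

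None of the 20 macrophage genes had a mean of 6, but control 8 differed from the rest. Its macrophage list mean was 4.14, against 2.50 to 2.79 on the other 8, and its summed level was 10.19 against 7.14 to 7.87. Lyz2, lysozyme of macrophages and granulocytes, was 8.73 on control 8 and 6.58 on control 9, with a median of 3.80 and a lowest value of 2.37. C1qb, a complement subunit made by macrophages, was 6.96 on control 8 and between 3.85 and 4.89 elsewhere. Ptprc and Adgre1, general markers of leukocytes and macrophages, were at 2.02 and 2.87 on control 8, near the other arrays. In bulk RNA a smaller number of cells of a type and less RNA per cell cannot be told apart. A limma fit on the macrophage list mean over 6638 genes rests on this 1 array and shows nothing of the other lines. It called 0 genes at an adjusted p under 0.05 (background 0%), with 16 at an unadjusted p under 0.05. Without control 8 it again called 0, with 406 at an unadjusted p under 0.05.

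The SD over the 9 controls had a median of 0.37 over the 6638 genes, with quartiles at 0.26 and 0.52. An SD above 1 was found for 297 genes (4.47%) and above 2 for 33, while 59 genes were below 0.1. The 100 genes of highest SD ran from 5.62 down to 1.42, where Capn6 (1.4224) was the last inside and Ehd2 (1.4196) the first outside. The 100 of lowest SD ran from 0.01 up to 0.11, with Rpl37a (0.1148) inside and Mrpl2 (0.1149) outside. The set of steady genes moved with the settings: 10 of the 100 were shared when array medians were subtracted, 22 with the median absolute deviation, 43 when the SD was set against genes of like mean, 47 with the mean of all probe sets and 60 without control 9. Of the 100 variable genes, 91 were shared when array medians were subtracted, 63 with the median absolute deviation, 62 against genes of like mean and 37 among genes with a mean of at least 8. The variable genes were weaker: their median mean was 7.43, against 13.70 for the steady genes and 9.75 for all.

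**Figure D2:**
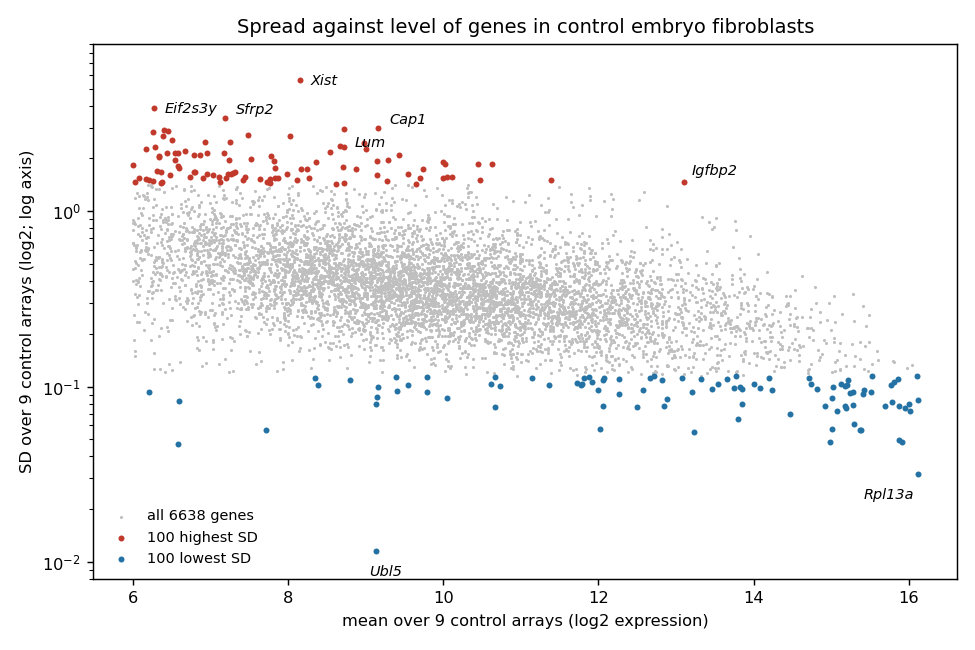
SD over the 9 controls (vertical log axis, log2 units) against the mean (horizontal axis, log2) for 6638 genes, with the 100 highest SDs in red and the 100 lowest in blue. Xist stands highest at an SD of 5.62, Igfbp2 is the variable gene with the strongest signal at a mean of 13.10, and 44 of the 100 steady genes have a mean of at least 14.

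Among the lists, ribosomal genes were the steadiest. Of 31 measured cytosolic ribosome genes, 27 had an SD under 0.26, the lower quartile of all genes, and 14 among the 100 lowest SDs, and the list's median SD was 0.13. Oxidative phosphorylation genes had a median SD of 0.19 (25 of 30 under that quartile, 3 among the 100) and proteasome subunits 0.22 (20 of 30). Rpl13a ran only from 16.06 to 16.16 and Rplp0, a protein of the ribosomal stalk, from 15.83 to 15.98. Signals of this size lie near the top of the scale, since 16.57 was the highest value on any control. Some steady genes were far lower. Ubl5, a ubiquitin-like protein of the spliceosome, had the lowest SD of all, 0.01 at a mean of 9.14, and ran from 9.11 to 9.15. Nf1, the Ras regulator neurofibromin, followed at a mean of 6.59 (SD 0.05), and Zgpat at 7.72 (SD 0.06). In the 6 trisomic arrays with a Gapdh difference under 3 the SD of Ubl5 was 0.20, from 9.04 to 9.58.

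Among the lists that mark no lineage, inflammatory and senescence-associated secreted factors had the highest median SD (1.02). Of their 15 genes 13 were above 0.52, the upper quartile of all genes, and 4 were among the top 100. Some lineage lists with only 1 or 2 genes in the ranking were higher, such as cardiac muscle (1.46) and adipocyte (1.27). The X- and Y-linked list had 1.01 over 5 genes. Growth factors and the insulin-like growth factor axis had a median SD of 0.80, with 22 of 28 above that quartile and 6 among the top 100. Mitosis genes (0.60, 19 of 28) and DNA replication genes (0.52, 14 of 28) were more variable than the median gene, though none was in the top 100. The extracellular matrix list was steady as a whole (0.29, 14 of 31 under the lower quartile), with Lum and Eln as its 2 exceptions in the top 100. Only 21 of the 100 variable genes belonged to any of the 36 lists, as did 442 of the 6638.

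Many variable genes were without signal on some lines. Of the 100, 41 were under 4 on at least 1 control, against 50 (0.753%) of all 6638 genes, and among the 25 most variable it was 21. Another probe set with a mean of at least 6 was available for 16 of the genes. Over the 9 arrays its correlation with the probe set used had a median of 0.968 and was above 0.8 for 12 genes. The lowest was 0.459, for Pkdcc. Probe sets of a gene share the same RNA and array, so this comparison is of probes and not of lines.

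Clustering the 100 genes by their correlation over the 9 controls put 90 of them into 5 groups of at least 5 genes. These groups describe the same values that chose the genes and carry no test. The largest, called group 1 here, held 55 genes with a median pairwise correlation of 0.816. Its mean deviation from the control mean was -2.20, -2.29 and -2.13 on controls 1, 2 and 3. It was -0.23 on control 4 and 0.29 on control 8, and between 1.46 and 1.85 on controls 5, 6, 7 and 9. The 3 lines whose numbers are shared with trisomy 16 were thus low and separate from all other controls in this group.

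**Figure D3:**
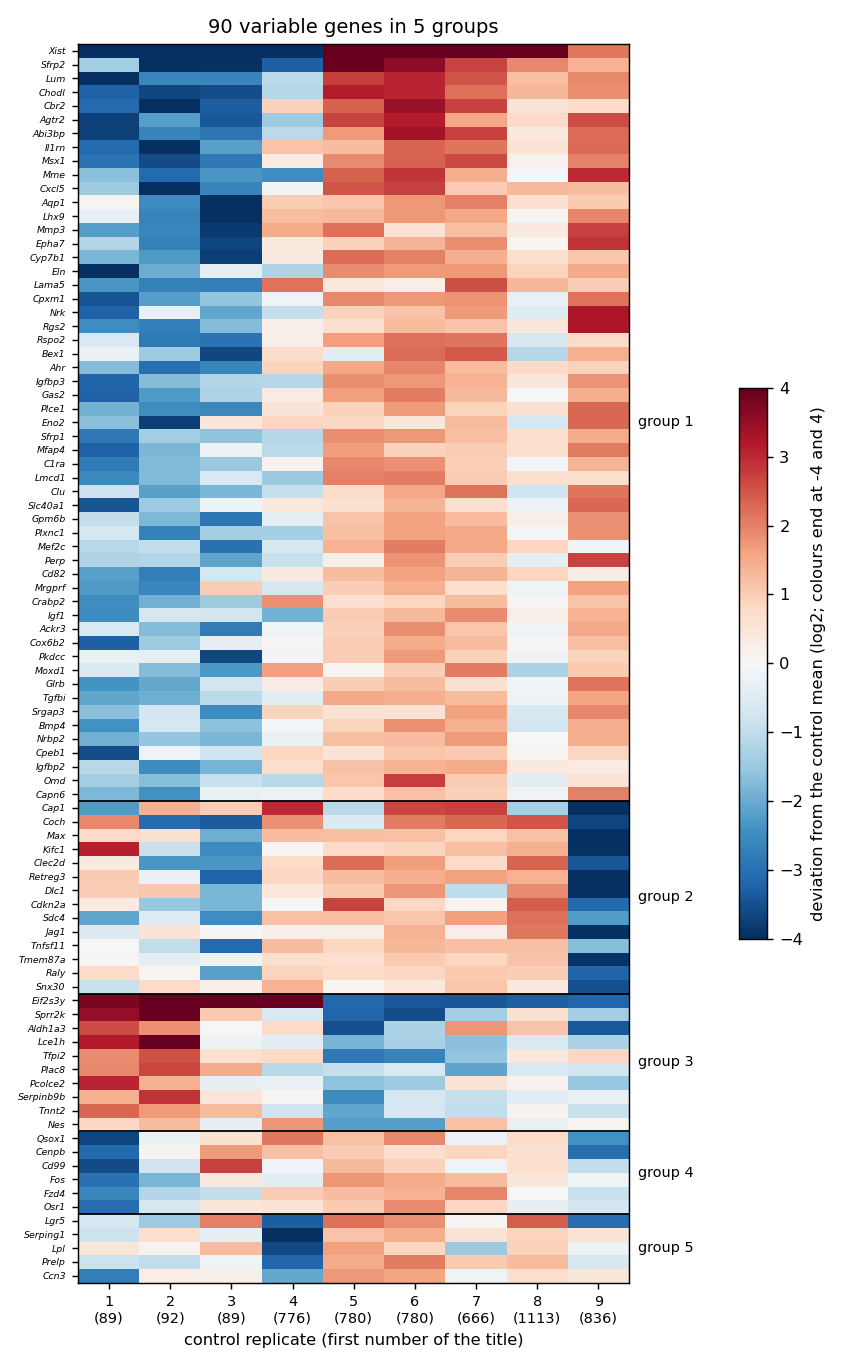
Deviation of 90 variable genes from their control mean (colour, log2) on each control array, with black lines between the 5 groups. Group 1 is low on controls 1 to 3, group 2 is low on control 9, group 3 is high on controls 1 and 2, group 4 is low on control 1, and group 5 is low on control 4.

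Group 1 holds many secreted regulators of mesenchyme. Sfrp2, a secreted antagonist of Wnt ligands, was the most variable autosomal gene, from 2.26 through 8.58 to 11.14 (SD 3.43). Controls 2, 3 and 4 were under 4, control 1 was at 5.81, and controls 5 to 9 were all above 8.5. Its relative Sfrp1 ran from 5.31 through 8.85 to 10.04. Controls 1 to 4 were between 5.31 and 7.04 and the other 5 between 8.85 and 10.04. Lum ran from 3.60 through 9.92 to 11.77 and was lowest on control 1. Chodl, a chondrolectin, ran from 2.75 through 7.73 to 9.55, with controls 1, 2 and 3 under 4.

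Igf1, Igfbp2 and Igfbp3 of the insulin-like growth factor axis were in the same group. Igf1, the growth factor, ran from 5.75 through 8.53 to 10.15 and was lowest on control 1 and highest on control 7. Igfbp3, a binding protein that carries it, ran from 7.42 through 11.10 to 12.50. Igfbp2, a second binding protein, ran from 10.59 through 13.49 to 14.58, with controls 2, 3 and 1 lowest. Bmp4, a ligand that patterns mesenchyme, ran from 6.84 through 9.23 to 11.11. Msx1, a homeobox gene induced by Bmp ligands in limb and face, ran from 3.69 through 7.57 to 9.89. Its values on controls 1, 2 and 3 were all under 4.5, and all others were above 7.4. Bmp4 did not separate these lines in the same way, since control 2 (8.59) was above control 8 (8.51).

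Inflammatory genes and elastic fibre genes were also there. Cxcl5, a neutrophil-attracting chemokine, ran from 4.43 through 9.98 to 11.70, and Il1rn, the interleukin-1 receptor antagonist, from 2.11 through 7.65 to 8.84. Mmp3, the matrix protease stromelysin, ran from 2.46 through 6.89 to 9.02. The first of these was lowest on control 2, as was Il1rn, and Mmp3 was lowest on control 3. Eln, elastin, ran from 5.28 through 10.34 to 11.32, and Mfap4, a microfibril-associated protein, from 6.52 through 10.39 to 11.81. Both were lowest on control 1. Ahr, the aryl hydrocarbon receptor, ran from 6.97 through 10.88 to 11.95, with a gap between controls 1 to 3 (at most 8.26) and the rest (at least 10.78).

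Group 2 was different in kind: 14 genes from several functions whose mean was low on control 9 (mean deviation -3.75) and on control 3 (-1.70). Not every gene was low on both. Max, the partner of Myc proteins, was 3.42 on control 9 and 6.59 on control 3, while the other 7 lay between 9.20 and 9.79. Cap1, an actin regulator, ran from 3.08 through 10.14 to 12.14, again lowest on control 9, and its second probe set followed it with a correlation of 0.979. On control 3 Cap1 was at its median, and it was lower on controls 1, 8 and 5 (6.89, 7.82 and 8.08). Cdkn2a, which encodes cell-cycle inhibitors that accumulate as fibroblasts age in culture, ran from 5.27 through 8.49 to 11.06. It was lowest on control 9 and highest on controls 5 and 8. Jag1, a Notch ligand, was 4.74 on control 9 and between 8.32 and 10.99 on the rest. Besides Cap1, only Sdc4 of this group had a second probe set with a mean of at least 6, at a correlation of 0.740. That probe set was not low on control 9 (8.47, in a range of 5.65 to 9.68) and was lowest on control 1. Control 9 also has the highest Gapdh difference of the controls (1.41), but control 3 has the lowest (-0.20). The fit on that difference is given below.

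Group 3 held 10 genes that were high on controls 1 and 2 (mean deviations 2.45 and 2.75). Sprr2k and Lce1h, genes of the cornified layer of skin, were among them. Sprr2k ran from 2.71 through 5.66 to 11.15 and Lce1h from 4.59 through 5.84 to 10.59. Both were highest on control 2 and next highest on control 1. Aldh1a3, an enzyme of retinoic acid synthesis, ran from 2.67 through 6.95 to 8.79, and Plac8 from 7.05 through 8.53 to 11.81. The epithelium list mean was also highest on controls 1 and 2, at 2.90 and 2.85 against 2.49 to 2.81 on the other 7. Of its genes, Krt18 was 6.88 and 7.27 on these lines and the keratin Krt19 was 7.17 and 6.26, while Krt8 (2.26 and 2.25) and Cdh1 (2.56 and 2.51) were without signal. The part of epithelial cells in group 3 was not tested.

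Groups 4 and 5 were small, and the mean of each was far lower on 1 line than on the others. Group 4 (6 genes) had a mean deviation of -3.17 on control 1 and -1.37 on control 9. It held Fos, an AP-1 transcription factor of the serum response, from 7.15 through 10.55 to 11.89, and Osr1, a regulator of connective tissue precursors, from 6.61 through 10.14 to 11.53. Both were lowest on control 1. Group 5 (5 genes) was low on control 4 (-3.23) and less so on control 1 (-0.93). It held Lpl (5.93 through 10.02 to 11.19), Lgr5, a receptor for R-spondins (5.72 through 9.06 to 11.43), and Serping1, the inhibitor of complement C1 (2.78 through 7.34 to 8.25). All these 3 genes were lowest on control 4, though for Lgr5 control 9 was nearly as low at 5.97. Ccn3 of this group differed: its second probe set was lowest on control 1, at 8.73 against 9.61 on control 4.

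The 2 genes of highest SD were sex-linked. Xist, the RNA that coats an inactive X chromosome, was 2.36, 2.33, 2.27 and 2.35 on controls 1 to 4. On controls 5 to 8 it was 13.64, 13.43, 13.18 and 13.59, and on control 9 it was 10.26. A second Xist probe set was at 12.44 on control 9, beside 12.52 to 12.70 on controls 5 to 8. The lower value on control 9 was thus not seen with that probe set. Eif2s3y, a Y-linked translation factor, was 10.04, 10.44, 10.26 and 10.79 on controls 1 to 4 and between 2.85 and 3.13 on controls 5 to 9. The other Y-linked genes Kdm5d (6.78 to 7.99 against 2.30 to 2.35) and Uty (6.24 to 7.94 against 2.49 to 2.58) fell on the same sides. The labels give no sex, and no groups were made from these genes. Of the 100 variable genes 6 lie on chromosome X, in assembly GRCm38.p6, as do 212 (3.19%) of all 6638. Another 1 lies on chromosome Y, the only gene of that chromosome among the 6638. Xist was in group 1 and Eif2s3y in group 3. Mean deviations of group 1 were negative on controls 1 to 4 and positive on controls 5 to 9. Those of group 3 were positive on controls 1 to 4 and negative on controls 5 to 9. The sizes differed within a side. Control 4 has the Xist level of controls 1 to 3, but its group 1 deviation was -0.23, against -2.29 to -2.13 on those. Eif2s3y is 1 of the 10 genes averaged in group 3, and Xist 1 of the 55 in group 1. The group 3 deviation on controls 4 and 8 was only 0.47 and -0.27. Eif2s3y alone was 10.79 and 3.01 there, against its mean of 6.28. The signs of group 3 on these 2 lines are thus not separate from Eif2s3y itself. How much of groups 1 and 3 moves with these genes was not tested.

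**Figure D4:**
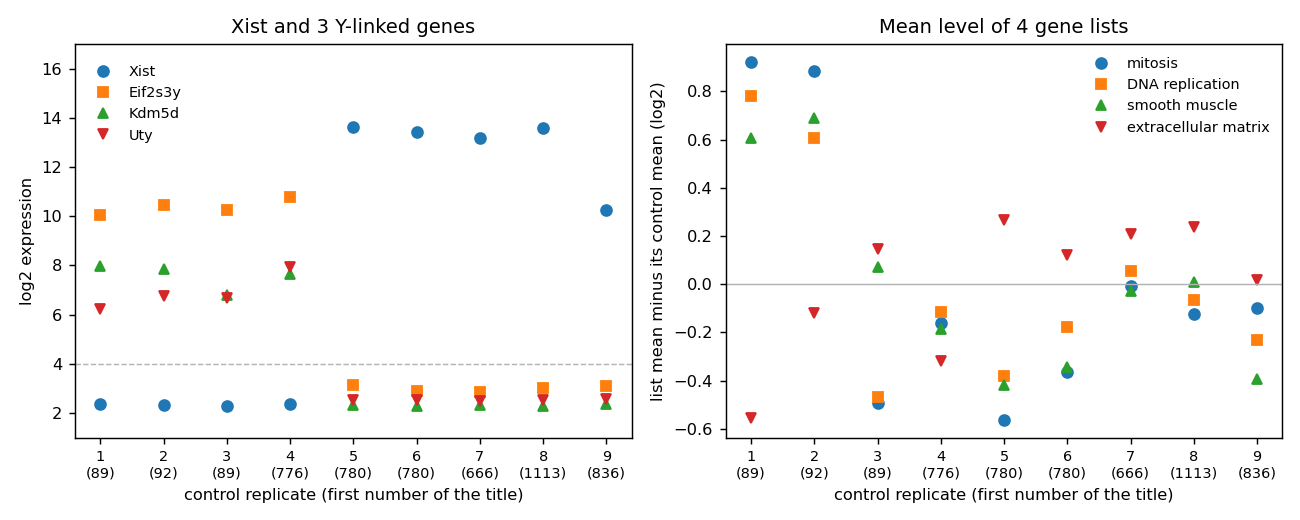
Left, log2 expression of Xist and 3 Y-linked genes on each control array, with a dashed line at 4. Right, the mean of 4 gene lists on each control minus its control mean (log2). Controls 1 to 4 have Y-linked signal and no Xist, controls 5 to 9 the reverse, and the mitosis, DNA replication and smooth muscle lists are highest on controls 1 and 2.

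The number in the title was the one grouping of controls that the labels give. The controls whose numbers are shared with trisomy 13 (controls 4, 5, 6 and 7) were compared with those shared with trisomy 16 (controls 1, 2 and 3) by limma with all 9 controls in the fit. Of 6638 genes, 287 (4.32%) passed an adjusted p under 0.05, 190 higher (2.86%) and 97 lower (1.46%) in the trisomy 13 set. Of the 100 variable genes, which were ranked on the same arrays, 37 passed, 33 higher and 4 lower. Group 1, whose genes were clustered on the same arrays, accounts for 31 of the 33. The count moved with single lines: it was 1140 without control 3, but 164 without control 1, 54 without control 2, 34 without control 5, 23 without control 6 and 28 without control 7. Of the 100 variable genes 11 to 57 passed in these fits. All 3 lines of the trisomy 16 set were also low in Xist, and 3 of the 4 lines of the other set were high. The part of this in the result was not tested.

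Ahr had one of the smallest p-values, with 7.54 (SD 0.66, n = 3) in the trisomy 16 set and 11.41 (SD 0.46, n = 4) in the trisomy 13 set, a difference of 3.87 ± 0.34 (SE, adjusted p = 0.00558). Cbr2, a carbonyl reductase, differed by 5.95 ± 0.59 and Msx1 by 4.93 ± 0.52, each at the same adjusted p. Igfbp2 differed by 3.00 ± 0.31 and the immediate early gene Egr1 by 1.93 ± 0.19, also at 0.00558. All these 5 genes were named for small p-values in this comparison, so the size of their differences adds nothing to it. In the other direction Plac8 was lower in the trisomy 13 set by 3.20 (SE 0.39, adjusted p = 0.00772) and Tnnt2 by 2.89 (SE 0.39, adjusted p = 0.0120). Igf1 (1.90 ± 0.85, adjusted p = 0.211) and Sfrp2 (5.17 ± 1.64, adjusted p = 0.104) did not pass, and for both genes control 4 lay among the low lines.

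Whether lines of the same number are more alike was asked with the 2 numbers that have 2 controls. Over the 6638 genes the deviations of controls 5 and 6 correlated at 0.676, higher than any of the other 34 pairs (-0.69 to 0.50). Controls 1 and 3 correlated at -0.08. The mean of these 2 pairs exceeded that of the others by 0.43 (exact permutation p = 0.0529, two-sided, over 378 placements, of which the smallest p possible is 0.0026). This did not pass at 0.05.

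The trisomic arrays gave the same measures in samples that were not used for the ranking. Here 3 trisomic arrays with a Gapdh difference above 3 were set aside, and genes on chromosomes 1, 13, 16 and 19 were left out. Over the remaining 6 arrays, 77 of 83 variable genes (92.8%) were in the top decile of SDs of 5568 genes, with a median SD of 1.54 against 0.38. Of 92 steady genes, 64 (69.6%) were in the bottom decile. With all 9 trisomic arrays, 60 of the 83 variable genes stayed in the top decile. Group levels can be set side by side for lines of the same number. In group 2, the MEF-836 trisomy 1 line was at -2.81 beside its control at -3.75, and the MEF-89 trisomy 16 line with the lower Gapdh difference at -2.12 beside control 3 at -1.70 and control 1 at 0.25. In group 5, the MEF-776 trisomy 13 line was at -4.16 beside control 4 at -3.24. Other lines of 1 number differed. In group 5 the MEF-780 trisomy 13 line with the lower Gapdh difference was at -1.01 beside its controls at 1.67 and 1.44. In group 3 the MEF-836 trisomy 1 line was at 1.46 beside its control at -1.32. The same MEF-89 trisomy 16 line was at -1.02 beside control 3 at 0.78 and control 1 at 2.59. These 3 trisomic lines differed from their controls in Eif2s3y, which is also averaged in group 3. It was 10.73 on the trisomy 1 line, against 3.10 on control 9. On the MEF-89 line it was 2.86, against 10.26 and 10.04 on controls 3 and 1. On the MEF-780 line it was 10.68, against 3.13 and 2.88 on controls 5 and 6. The part of this in the gaps was not tested. In group 1, the trisomy 16 lines with a Gapdh difference under 3 were at -1.17 and -0.80 and the trisomy 13 lines at -0.57 and -0.24. The 3 arrays above that limit were at -1.15 (trisomy 16), -0.32 and -0.07 (trisomy 13). No test was made of these single lines.

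**Figure D5:**
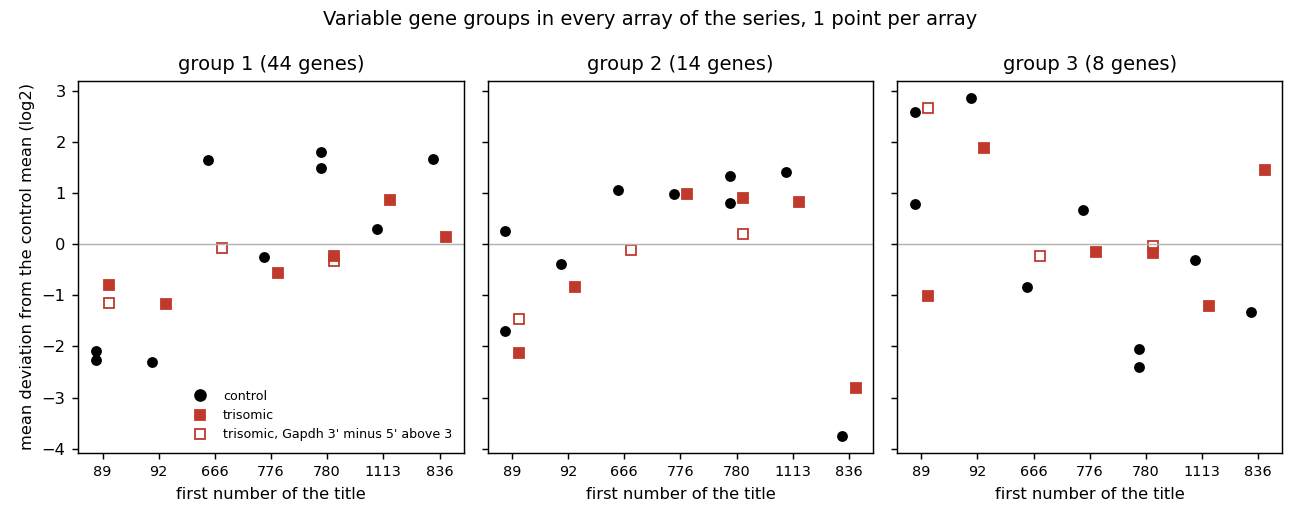
Mean deviation of groups 1, 2 and 3 from the control mean (log2) on all 18 arrays by the first number of the title, leaving out genes on chromosomes 1, 13, 16 and 19. Black circles are controls, red squares trisomic lines, and open squares trisomic arrays with a Gapdh difference above 3. In group 2 both MEF-836 arrays are lowest, at -3.75 and -2.81.

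Controls also differed in how strongly they expressed genes of cell division. The mitosis list mean was 11.23 and 11.19 on controls 1 and 2 and between 9.75 and 10.30 on the other 7. The DNA replication list rose on the same lines, to 10.52 and 10.34 against 9.27 to 9.79, and over the 9 controls the 2 lists correlated at 0.979. The smooth muscle list mean was also highest there, 11.17 and 11.25 against 10.14 to 10.63, with a correlation to the mitosis list of 0.879. The matrix list was lowest on control 1 (12.80) and its correlation with the mitosis list was -0.709. All these lists share the same 9 arrays and their scaling, so the correlations are descriptions.

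A fit across all genes on the mitosis list mean found 568 of 6610 genes past an adjusted p under 0.05 (8.59%), 378 rising with it (5.72%) and 190 falling (2.87%). Members of the mitosis list were part of the fit and of its p-value adjustment, and were left out of the counts. Of 28 DNA replication genes 17 rose and none fell, and 5 of 13 smooth muscle genes rose. Of 18 lysosome genes 7 fell. Kpna2, a nuclear import factor, rose by 0.75 ± 0.08 per unit of the list mean (limma adjusted p = 0.0031), and Spdl1, a spindle protein, by 1.81 ± 0.21 (adjusted p = 0.00371). Hmox1, heme oxygenase, fell by 2.36 (SE 0.30, adjusted p = 0.00442) and the stress-induced pseudokinase Trib3 fell by 1.91 (SE 0.19, adjusted p = 0.0031). Of the 100 variable genes 16 passed, 4 up and 12 down. Controls 1 and 2 set the upper end of the list mean, and the count was 0 without control 1 and 309 without control 2. It was 128 without control 5, 326 without control 6 and 307 without control 8, and 936 without control 3. With the first number as a random block it was 1846.

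The fit on the smooth muscle list mean, made in the same way, called 459 of 6625 genes (6.93%), 234 rising (3.53%) and 225 falling (3.4%). Here 41 of the 100 variable genes passed, 7 rising and 34 falling. Group 1 supplied 33 of those that fell, of 55, and group 3 supplied 7 of 10 that rose. Genes of a group were clustered on these same 9 arrays because they move together, so their calls are not separate results. Sprr2k rose by 6.62 ± 0.69 per unit of the list mean (limma adjusted p = 0.00305) and Lce1h by 4.96 ± 0.61 (adjusted p = 0.00358). The metal-binding metallothionein Mt1 fell by 1.81 (SE 0.21, adjusted p = 0.00352) and Gas2, a growth arrest gene, by 4.24 (SE 0.52, adjusted p = 0.00358). Of 28 mitosis genes 16 rose. This count was 28 without control 1 and 146 without control 2. It was 152 without control 5, 248 without control 6, 770 without control 3 and 748 without control 9. The 2 fits use list means that move together, so they do not count as separate results.

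RNA quality was set against the same genes. With the Gapdh difference as covariate, 1 of 6638 genes (0.0151%) passed. This was Glipr2, a Golgi-associated protein, which fell by 2.07 per unit (SE 0.18, limma adjusted p = 0.00201) and was at 7.55 on control 9 and 9.19 on control 7, against 10.04 to 11.07 elsewhere. It did not pass without control 9, and 925 genes had an unadjusted p under 0.05. The median slope was -1.62 for group 2 and 1.33 for group 1, against 0.11 for all genes. Over 8 lists and 3 quality measures, 24 correlations over the 9 controls were tested by exact permutation. None passed after Benjamini-Hochberg adjustment (lowest adjusted p 0.965 for Pearson's r and 0.885 for Spearman's rho), and 1 Spearman and 0 Pearson p-values were under 0.05 before it.

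Promoters of 4 genes show the sequence before the start of variable and steady genes. The 100 bases before the annotated start, from the RefSeq promoter table of GRCm38.p6, are printed 5′ to 3′ on the gene's strand. Capitals mark a TATAAA box in the first 3 and a CArG box, the binding motif of serum response factor, in the fourth. Fos (chr12:85473790-85473889, plus strand) and Sprr2k (chr3:92432482-92432581, plus strand) are variable genes of groups 4 and 3. Vim (chr2:13574211-13574310, plus strand) and Actg1 (chr11:120348496-120348595, minus strand) are among the 100 steady and the 100 strongest.
Fos: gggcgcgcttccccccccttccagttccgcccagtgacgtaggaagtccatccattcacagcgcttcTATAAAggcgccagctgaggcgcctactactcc
Sprr2k: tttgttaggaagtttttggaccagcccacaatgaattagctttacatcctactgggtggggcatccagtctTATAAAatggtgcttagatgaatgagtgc
Vim: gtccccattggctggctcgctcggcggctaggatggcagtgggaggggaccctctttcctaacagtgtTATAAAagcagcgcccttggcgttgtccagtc
Actg1: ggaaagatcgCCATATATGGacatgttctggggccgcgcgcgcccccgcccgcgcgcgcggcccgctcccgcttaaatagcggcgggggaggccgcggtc

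The letters TATAAA were searched on both strands of 300-base promoters, from 250 bases before to 50 after the start. They were in 16.3% of the 92 promoters of variable genes (74 of 100 genes had an entry), in 9.35% of the 107 of steady genes (83 genes), in 6.97% of the 7092 of all genes with a mean of at least 6, and in 13.62% of all 32851. On the gene's own strand, from 45 to 16 bases before the start, the shares were 2.17%, 1.87%, 1.00% and 2.14%. The CArG box was in 2.17% of promoters of variable genes, 1.87% of steady genes, 1.42% of genes with a mean of at least 6 and 1.63% of all. It was in 5 of 18 (27.78%) for the serum response list and 2 of 13 (15.38%) for the smooth muscle list. A match describes letters in this window and not a used site.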

How the data were processed

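Messenger RNA of 18 mouse embryo fibroblast lines was measured on Affymetrix arrays, and the 9 controls were analysed here. The authors deposited log2 expression values per probe set, made with GCRMA and the affy package per the submitters' processing notes. Their versions and parameters, and whether the 18 arrays were processed jointly, were not given in the sources used here. GCRMA corrects each probe for background by its sequence, and genes without signal then gather at low values with little spread, which is why genes of low mean were left out of the ranking. Arrays carry no counting depth, and their number limits the precision.

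Of 22690 probe sets, 64 are array controls, 20393 were listed with 1 gene and used, 691 with several and 1606 with no entry. For each gene the probe set with the highest control mean was kept. Genes were placed by Entrez identifier in RefSeq annotation GRCm38.p6. SD ranks, clustering (average linkage on 1 minus Pearson's r, at a distance of 0.5) and the fits used genes with a control mean of at least 6. Fits used limma 3.58.1 in R 4.3.3 (lmFit, eBayes with trend) with Benjamini-Hochberg adjustment, two-sided, with 7 residual degrees of freedom for a covariate and 5 for the 4 sets of title numbers. A covariate was a list mean or a quality difference. List members were part of their own fit and its adjustment, and were left out of its counts. Permutation tests enumerated all pairings or placements. The fits were tested on simulated data with 200 of 6638 genes changed by 2 log2 units: 95.2% to 100% were found, and 3.66% to 5.57% of the calls were false. For a covariate the change was 2 units per SD of the covariate. The simulated noise was independent between genes, and its SD was capped at the upper quartile of all genes (0.52). These rates do not hold for the 100 variable genes, whose SDs were at least 1.42 and many of which move together. Other software was numpy 2.4.6, scipy 1.17.1 and matplotlib 3.10.9.

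The members, the 36 gene lists and the tests were chosen with earlier results of these data known. The limit of 3 for the Gapdh difference, the second probe sets, the groups in trisomic arrays and the promoter search were chosen after the data were seen. Named genes are the 20 of highest mean, the 25 of highest and 15 of lowest SD, up to 4 of a list by mean and 3 by SD, and up to 5 of a fit in each direction by p. Other names (Thy1, Krt8, Cdh1, Alb, Pou5f1, Pecam1, Cdh5, Ptprc, Adgre1, Kdm5d, Uty, Igf1, Bmp4, Jag1, Sdc4, Osr1, Serping1, Ccn3, Mfap4, Pkdcc, Capn6, Ehd2, Rpl37a and Mrpl2) were chosen after their values were seen. Alternatives were the mean of all probe sets, quantile normalization, subtraction of array medians, other filters, other measures of spread, no trend, the number as a random block, and leaving out each control. The planned fit on the Xist level was not run, because Xist falls into separate clusters and the fit would compare groups made from a measured gene.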

Additional observations from a re-analysis of the deposited data

Results flagged for a closer look

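In each item below 1 control lay far from the other 8 by Dixon's gap rule at 95%. Of 264 items tested 21 did so, where the nominal rate of the rule is about 1 in 20 groups. Of these, 7 were on control 9, 6 on control 3 and 5 on control 1. Over all 6638 genes the rule picked 225 (3.39%) on control 9, 200 (3.01%) on control 3 and 170 (2.56%) on control 1. Among the items it picked 17 of 228 genes. Such genes were thus no more frequent here than among all genes, and the same controls led. No explanation was tested for any of these values.

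On control 9, Max was low at 3.42, the secreted matrix protein gene Ccn1 at 12.89 and the AP-1 gene Junb at 4.92. The proteasome gene Psmd13 was low there at 9.87 and the ATP synthase gene Atp5g1 at 11.13, and the p53 target Zmat3 was high at 12.15. The mean of the list of X- and Y-linked genes was also lowest on control 9, at 7.17. That list includes Xist, which was 10.26 there on the probe set used and 12.44 on a second probe set. On control 3, the ribosomal gene Rps29 was low at 15.84, the transcription factor gene Egr2 at 6.83, the amino acid transporter gene Slc38a4 at 8.42, the interferon-induced gene Gbp2 at 5.45 and the proteasome gene Psma6 at 13.03, and Tpt1 was high at 15.99. On control 1, the imprinted RNA Meg3 was low at 12.96, the proton pump gene Atp6v0d1 at 9.99, the profilin gene Pfn1 at 11.54 and the growth factor gene Ptn at 11.72, and the skeletal muscle list mean was high at 3.17. On control 2, the imprinted growth factor gene Igf2 was low at 12.34. The adipocyte list mean was low on control 4 at 3.27, and the macrophage list mean was high on control 8 at 4.14.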

How the results depend on the processing

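Of the 100 genes of highest SD, 63 were shared when spread was the median absolute deviation, 62 when it was set against genes of like mean and 37 when genes needed a mean of at least 8 (79 to 98 when 1 control was left out). Of the 100 of lowest SD, 47 were shared with the mean of all probe sets, 10 when array medians were subtracted, 22 with the median absolute deviation, 43 when spread was set against genes of like mean, and 60 to 88 when 1 control was left out (60 without control 9). Leaving out 1 control moved the count of genes called from 0 to 3 for the Gapdh difference (0 without control 9, 3 without control 7), from 0 to 936 for the mitosis list, from 28 to 770 for the smooth muscle list and from 23 to 1140 for the comparison of number sets. With the mean of all probe sets the Gapdh difference called 0 genes and the number sets 167. With the number as a random block the mitosis list called 1846. All other alternatives kept these counts within 1.5 times, and the macrophage list, whose mean is set by control 8, called 0 genes under each. The p for same-number pairs was 0.0503, 0.0503 and 0.13 under its alternatives, against 0.0529. The fit on the Xist level and its alternatives were not run. No paired analysis was possible because no replicate number recurs among the controls and the sets of controls compared share no first number. The random block above is the first number, which controls 1 and 3 and controls 5 and 6 share. Probe signal near background limits the low values.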
